A study of Mus musculus with 6 samples.

Results

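The 10 enzymes that build and sulfate chondroitin sulfate were followed in RNA-seq libraries of mouse bone marrow–derived macrophages (BMMs) treated with DASA-58, an activator of pyruvate kinase M2, or with DMSO, its solvent. The members are Xylt2, Csgalnact1, Csgalnact2, Chsy1, Chpf, Chpf2, Chst11, Chst12, Chst14 and Chst7. They were chosen by gene symbol, as chain-forming enzymes and sulfotransferases of chondroitin sulfate, and all 10 were found among the 23504 genes of the table. The BMMs came from young male C57BL/6 mice, and the labels give no further allele or transgene. They were grown with M-CSF and taken after 3 days, in 3 libraries with DMSO and 3 libraries with DASA-58. According to the study's results both groups received RANKL, the cytokine that turns macrophages into osteoclasts, but its methods name RANKL for the DASA-58 group and leave the DMSO group unclear. The methods also write DASA-48 where the labels write DASA-58, and no dose is stated for this experiment. Nothing says whether the 3 libraries of a group came from separate mice or from wells of one culture, so every p-value below measures the spread between these libraries, which may be technical.

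Chondroitin sulfate is a long sugar chain of alternating glucuronic acid and N-acetylgalactosamine that is attached to serine residues of core proteins. Xylosyltransferases start the linkage to the core protein, N-acetylgalactosaminyltransferases commit that linkage to chondroitin, the synthase and its partner polymerizing factors lengthen the chain, and sulfotransferases then place sulfate at fixed positions of its sugars. In macrophages the chains are carried by serglycin in granules and by versican and other proteoglycans outside the cell, and chondroitin sulfate is also a component of the cartilage and bone matrix on which osteoclasts work.

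Chst11 and Chst7, which add sulfate to N-acetylgalactosamine, fell with DASA-58 to about 60% of their DMSO level (59.6% and 61.8%). Xylt2, which starts the linkage, rose to 116.3%. Chpf, a polymerizing factor, was at 65.4% of DMSO but did not pass the test (adjusted p = 0.068, limma, Benjamini-Hochberg). The other 5 tested members, Csgalnact2, Chsy1, Chpf2, Chst12 and Chst14, were between 101.3% and 106.3% of DMSO, and none passed the test. Csgalnact1 was too low to be tested. Chst11, Chst7 and Chpf are drawn in the study's own network of downregulated genes, which was made from the same libraries. Their lower level here is therefore not independent evidence of its direction. The study's text does not name them. Its stated fold-change cutoff for that network is stricter than their log2 ratios of mean FPKM here (-0.75, -0.69 and -0.61).

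The sequences before the transcription start are shown for Chst11, Chst7 and Xylt2, which passed the test, and for Chpf, which did not pass it but was at a similar percentage of DMSO to Chst11 and Chst7. They are the 250 bases before the RefSeq start of each gene on build GRCm38.p6, read 5′ to 3′ on the strand of the gene. Capitals mark every match of 7 motifs on either strand, namely AP-1 (TGANTCA), GC box (GGGCGG), PU.1 (GAGGAAGT), NFAT (TGGAAA), E-box (CACGTG), antioxidant response element (TGACNNNGC) and cyclic AMP response element (TGACGTCA, added after the sequences were seen).
Chst11, chr10:82985247-82985496, plus strand: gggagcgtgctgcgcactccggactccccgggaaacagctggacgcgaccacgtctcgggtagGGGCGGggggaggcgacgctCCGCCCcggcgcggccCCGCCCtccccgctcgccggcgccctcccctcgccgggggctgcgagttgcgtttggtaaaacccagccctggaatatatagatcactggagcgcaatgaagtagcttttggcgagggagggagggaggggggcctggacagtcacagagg
Chst7, chrX:20059320-20059569, plus strand: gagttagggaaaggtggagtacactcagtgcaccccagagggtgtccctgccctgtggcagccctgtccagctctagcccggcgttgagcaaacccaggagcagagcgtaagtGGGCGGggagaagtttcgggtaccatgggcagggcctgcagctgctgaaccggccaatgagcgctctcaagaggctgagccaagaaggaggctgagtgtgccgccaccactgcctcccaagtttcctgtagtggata
Chpf, chr1:75479472-75479721, minus strand: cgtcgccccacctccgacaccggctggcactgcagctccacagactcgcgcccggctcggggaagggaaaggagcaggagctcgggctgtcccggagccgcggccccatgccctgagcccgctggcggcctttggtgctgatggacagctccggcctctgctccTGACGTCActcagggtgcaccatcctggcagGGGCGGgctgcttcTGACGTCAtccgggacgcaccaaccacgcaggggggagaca
Xylt2, chr11:94677494-94677743, minus strand: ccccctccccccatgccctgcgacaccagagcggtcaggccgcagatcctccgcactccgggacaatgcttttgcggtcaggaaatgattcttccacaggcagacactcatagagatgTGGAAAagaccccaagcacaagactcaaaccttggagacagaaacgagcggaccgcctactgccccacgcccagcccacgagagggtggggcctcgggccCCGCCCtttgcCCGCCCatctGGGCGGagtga

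Promoters in RefSeq were matched for 9 of the 10 members. The GC box was the motif that these 4 windows shared, with 3 matches for Chst11, 1 for Chst7, 1 for Chpf and 3 for Xylt2, and 32.7% of all 32851 mouse promoter windows of this length hold it. These 4 windows were 61.2% to 70.4% G or C, against a median of 52.4% for all windows. The share of 32.7% is thus not one for windows of like base composition. It was also found in the windows of Chst12, Chst14, Chsy1 and Csgalnact2, whose levels did not pass the test, and not in that of Chpf2. The Chpf window held 2 cyclic AMP response elements, beginning 86 and 41 bases before the RefSeq start, and 1.55% of all windows hold at least 1. Because this motif was added after the sequences were seen, that share cannot show whether its presence here is unusual. Nor is it a share for windows of like base composition. The Xylt2 window held 1 NFAT match, 132 bases before the start, against 18.6% of all windows. NFAT matches were also found in the windows of Chst14 and Csgalnact2, whose levels did not pass the test. AP-1 (6.75% of all windows), PU.1 (2.44%), E-box (6.02%) and antioxidant response element (10.2%) had no match in the 4 windows. A match is a string of letters, and factor binding was not measured here.

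Levels are given as FPKM, fragments normalized to gene length and to library depth, and between 18191560 and 18968556 fragments per library were recovered from the steps of these values. A count of 0 allows 3 fragments, which is at most 0.079 FPKM for any of the members in any library and covers counting error only. The groups were compared on log2(FPKM + 1) with limma, adjusted by Benjamini-Hochberg, over the 10965 genes that averaged 1 FPKM or more, and log2 fold changes below are DASA-58 minus DMSO on that scale. Changes of genes near or under 1 FPKM are understated by it. With 3 libraries a group, p = 0.10 is the smallest that an exact permutation test can reach. Of all genes tested, 7.28% were lower and 4.24% were higher at an adjusted p under 0.05, and 11.5% moved in either direction. The median log2 fold change of all genes tested was -0.028. All 8 macrophage markers passed the filter, with summed levels of 16411.6 to 17254.8 FPKM in the DMSO group and 17341.9 to 19650.9 FPKM in the DASA-58 group, most of it from Lyz2, whose groups overlapped. Of these 8 markers, 3 were higher (Adgre1, Cd68 and Mertk) and 1 was lower (Cd14). Of the osteoclast markers 7 were tested and all 7 were lower, for example Ctsk at 209.9 FPKM in the DMSO group and 109.6 FPKM in the DASA-58 group. Pkm, whose M2 product DASA-58 activates, had a mean of 575.2 FPKM in the DMSO group and 574.9 FPKM in the DASA-58 group, Gapdh was at 43.8 and 45.8 FPKM, and the osteoclast genes Acp5 and Mmp9 were at 104.6 and 55.6 FPKM and at 412.5 and 245.6 FPKM.

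Of the 10 members 9 passed the filter on low values. Among these, 2 were lower and 1 was higher, against the shares of 7.28% and 4.24% of all genes given above. Chst11 passed the filter only through its higher DMSO level, since its DASA-58 mean was under 1 FPKM, so that these counts describe the members and are no support for a difference.

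**Figure D1:**
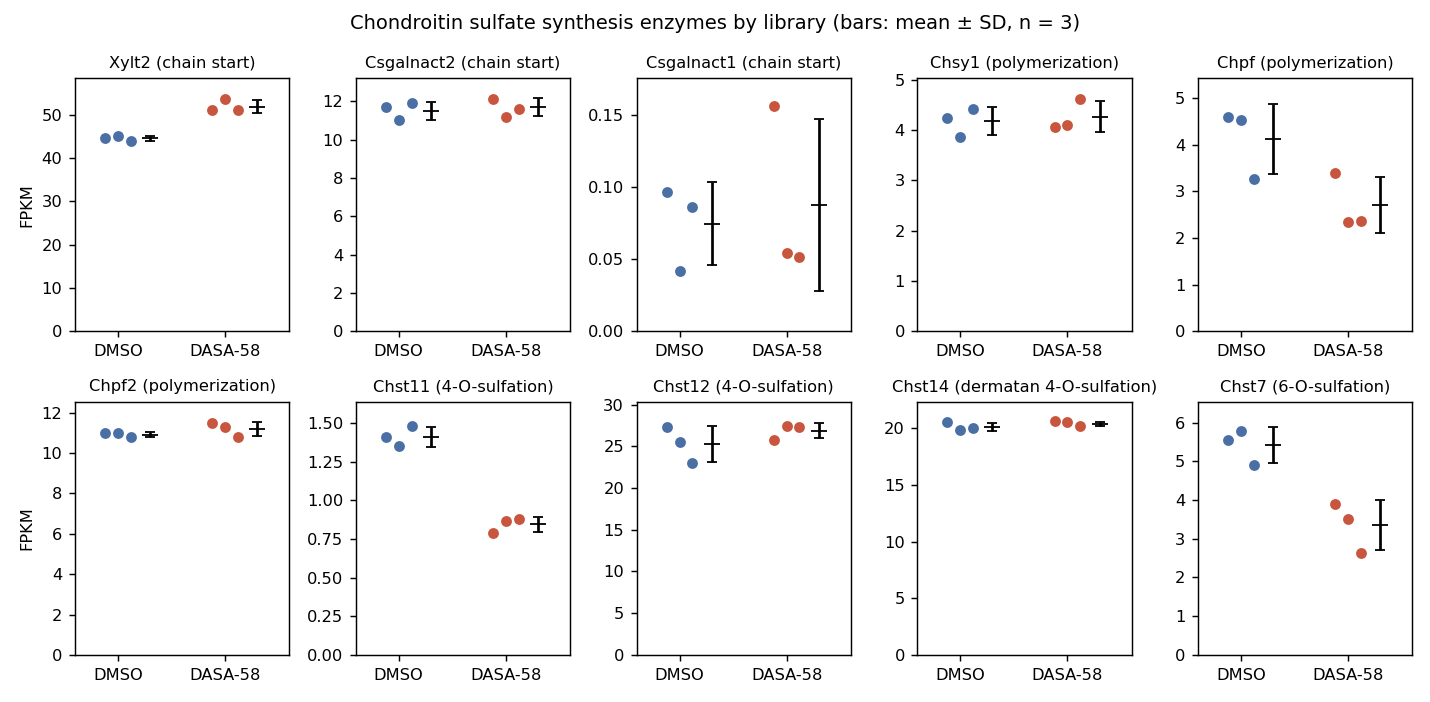
FPKM of the 10 members in each of the 3 DMSO libraries (blue) and 3 DASA-58 libraries (red), with the mean ± SD of each group as a black bar and every axis starting at 0. The DASA-58 points of Chst11 and Chst7 all lay under, and those of Xylt2 all above, the DMSO points, Chpf overlapped between the groups, and the other members overlapped near equal means.

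The levels of the members spanned a wide range in the DMSO libraries, from 44.6 FPKM for Xylt2 to 0.0747 FPKM for Csgalnact1. Chst12 (25.3 FPKM) and Chst14 (20.1 FPKM) followed Xylt2, and then came Csgalnact2 (11.5 FPKM) and Chpf2 (10.9 FPKM), whose ranges over libraries overlapped in both groups. Chst7 (5.42 FPKM), Chsy1 (4.18 FPKM) and Chpf (4.13 FPKM) were next, with overlapping ranges of Chsy1 and Chpf in the DMSO libraries. Chst11, at 1.41 FPKM, was the second lowest. In the GENCODE annotation of GRCm38 these genes are spread over the genome, with Chst12 and Chpf2 on chromosome 5 (140505550 to 140525724 and 24586741 to 24594556), Chst14 as a single exon on chromosome 2 (118926496 to 118928585), Csgalnact2 on chromosome 6 (118107452 to 118139140) and Chsy1 on chromosome 7 (66109515 to 66173798). With DASA-58 the order changed in the middle, where Chst7 lay below Chsy1 in every library and its range overlapped that of Chpf.

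Xylt2 (ENSMUSG00000020868) encodes xylosyltransferase 2, which transfers xylose to the core protein and so begins chondroitin sulfate and heparan sulfate alike. It lies on chromosome 11 from 94663851 to 94677515 in the GENCODE annotation of GRCm38. Its level was 44.7, 45.2 and 44.0 FPKM in the DMSO libraries and 51.0, 53.6 and 51.1 FPKM in the DASA-58 libraries. The lowest DASA-58 library lay above the highest DMSO library. The mean rose from 44.6 ± 0.595 FPKM to 51.9 ± 1.5 FPKM (SD, n = 3 each), which is 0.21 on the log2 scale (SE 0.031, 95% interval 0.14 to 0.29, adjusted p = 0.0054, limma, Benjamini-Hochberg). The change was small, and it rested on 3191 to 3393 fragments per DMSO library and 3820 to 3883 per DASA-58 library. Xylt2 passed the test under all 18 alternatives that were run.

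Xylt1, the other xylosyltransferase, was at 1.28 ± 0.146 FPKM in the DMSO group and 1.6 ± 0.154 FPKM in the DASA-58 group (SD, n = 3 each), with overlapping groups and an adjusted p of 0.19 (limma, Benjamini-Hochberg). It held 2.79% of the summed FPKM of the pair with DMSO and 2.98% with DASA-58. Nearly all xylosyltransferase transcripts of these cells were therefore Xylt2 in both groups.

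Csgalnact2 encodes an enzyme that adds the first N-acetylgalactosamine and thereby commits the linkage to chondroitin. Its libraries were at 11.7, 11 and 11.9 FPKM in the DMSO group and 12.1, 11.2 and 11.6 FPKM in the DASA-58 group, so that the groups overlapped. The log2 fold change was 0.02, with a 95% interval of -0.09 to 0.12. A larger shift in either direction lay outside this interval.

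Csgalnact1, which catalyzes the same step, was barely detected. It had 9, 4 and 8 fragments in the DMSO libraries and 15, 5 and 5 in the DASA-58 libraries, or 0.0963, 0.0417 and 0.0863 FPKM against 0.156, 0.0540 and 0.0518 FPKM. With counts this low the counting error alone was 38% of the DMSO level, and a difference between the groups was not detectable at this depth. Csgalnact1 made up 0.639% of the summed FPKM of the pair with DMSO and 0.731% with DASA-58.

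Among the polymerizing enzymes, Chsy1 encodes chondroitin sulfate synthase 1, which carries both sugar transferase activities of the growing chain. Its level was 4.24, 3.87 and 4.43 FPKM in the DMSO group and 4.07, 4.11 and 4.62 FPKM in the DASA-58 group. The groups overlapped, and the log2 fold change was 0.02 (95% interval -0.13 to 0.17, adjusted p = 0.86, limma, Benjamini-Hochberg). Its exons overlap the antisense gene Gm26827, whose reads may not be separated from it without strand.

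Chpf (ENSMUSG00000032997) encodes chondroitin polymerizing factor, a partner of the synthase, and lies on the minus strand of chromosome 1 from 75474569 to 75479307. The window shown above, 75479472 to 75479721, was set by the RefSeq start and does not adjoin this GENCODE end. The level of Chpf was 4.59, 4.53 and 3.26 FPKM in the DMSO libraries and 3.39, 2.34 and 2.37 FPKM in the DASA-58 libraries. DMSO replicate 3 lay under DASA-58 replicate 1, and the other libraries did not cross. The means were 4.13 ± 0.750 FPKM and 2.70 ± 0.599 FPKM (SD, n = 3 each), and the log2 fold change of -0.47 had a standard error of 0.14 and an adjusted p of 0.068 (limma, Benjamini-Hochberg). The SD of Chpf over libraries was 3.1 times that of counting in both groups, at 164 to 329 fragments per library. Without DMSO replicate 3 the log2 fold change was -0.60 with an adjusted p of 0.035, and without DASA-58 replicate 1 it was -0.60 with an adjusted p of 0.039 (limma, Benjamini-Hochberg). Whether Chpf passed the test thus turned on single libraries, the same 2 that crossed between the groups, and leaving out either necessarily widens the difference. It turned on the model too. With all libraries Chpf passed with the replicate block (adjusted p = 0.036) and with voom weights (adjusted p = 0.00079, limma, Benjamini-Hochberg). Leaving out any other library gave an adjusted p of 0.17 to 0.19 (limma, Benjamini-Hochberg).

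Chpf2, a second polymerizing factor, did not pass the test (adjusted p = 0.67, limma, Benjamini-Hochberg). It was at 11, 11 and 10.8 FPKM in the DMSO group and 11.5, 11.3 and 10.8 FPKM in the DASA-58 group, a log2 fold change of 0.03 (95% interval -0.06 to 0.12). The share of Chpf in the summed FPKM of both factors was 29.4%, 29.2% and 23.2% with DMSO and 22.8%, 17.2% and 17.9% with DASA-58. These shares did not overlap, although DMSO replicate 3 and DASA-58 replicate 1 were nearly equal. Among all 3 polymerizing enzymes of the members, Chpf held 23.1%, 23.3% and 17.6% of the summed FPKM with DMSO and 17.9%, 13.2% and 13.3% with DASA-58, and there the groups overlapped. Exons of Chpf2 overlap those of Smarcd3 on the opposite strand, and the use of strand in the counting is not given in the sources used here, so that reads of the 2 genes may not be separated.

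Chst11 (ENSMUSG00000034612) encodes chondroitin 4-O-sulfotransferase 1, which sulfates N-acetylgalactosamine at carbon 4, the most common sulfate position of mammalian chondroitin. It lies on chromosome 10 from 82985498 to 83195900. Its level was 1.41, 1.35 and 1.48 FPKM in the DMSO libraries and 0.788, 0.865 and 0.878 FPKM in the DASA-58 libraries. All DASA-58 libraries lay below all DMSO libraries, with a gap wider than the range of either group. The mean fell from 1.41 ± 0.0638 FPKM to 0.844 ± 0.0486 FPKM (SD, n = 3 each), which is -0.39 on the log2 scale (SE 0.075, adjusted p = 0.016, limma, Benjamini-Hochberg). Taken from the mean FPKM without a pseudocount, the log2 ratio was -0.75. These values rested on 141 to 149 fragments per DMSO library and 82 to 92 per DASA-58 library. The call was lost without DMSO replicate 1 (adjusted p = 0.055) and without DASA-58 replicate 1 (adjusted p = 0.054, limma, Benjamini-Hochberg), while the log2 fold change stayed between -0.41 and -0.37 whichever library was left out. Chst11 was among the genes tested only through its DMSO level. With no filter on low values its adjusted p was 0.041 (limma, Benjamini-Hochberg).

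Chst12, which encodes the second chondroitin 4-O-sulfotransferase, was far more abundant and did not pass the test (adjusted p = 0.40, limma, Benjamini-Hochberg). It was at 27.3, 25.5 and 23.0 FPKM in the DMSO group and 25.8, 27.5 and 27.3 FPKM in the DASA-58 group, a log2 fold change of 0.09 (95% interval -0.05 to 0.23). The groups overlapped, and the SD over the DMSO libraries was 2.8 times that of counting. Chst11 held 4.90%, 5.04% and 6.04% of the summed FPKM of the pair in the DMSO libraries and 2.96%, 3.05% and 3.11% in the DASA-58 libraries. The share of Chst11 was thus lower in every DASA-58 library, while the transcripts of the pair together were mostly Chst12 in both groups.

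Chst14 encodes dermatan 4-O-sulfotransferase 1, which acts on chains in which glucuronic acid has been converted to iduronic acid. Its level was 20.5, 19.8 and 20 FPKM in the DMSO group and 20.6, 20.5 and 20.2 FPKM in the DASA-58 group. The groups overlapped, and the log2 fold change of 0.02 had a 95% interval of -0.05 to 0.09. Its SD over libraries was 0.51 and 0.25 times that of counting in the DMSO and DASA-58 groups.

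Chst7 (ENSMUSG00000037347) encodes an enzyme that sulfates N-acetylgalactosamine at carbon 6. It lies on chromosome X from 20059560 to 20097521. Its level was 5.56, 5.79 and 4.90 FPKM in the DMSO libraries and 3.90, 3.51 and 2.63 FPKM in the DASA-58 libraries. No DASA-58 library reached the lowest DMSO library, and the DASA-58 libraries were more spread than the DMSO libraries. The mean fell from 5.42 ± 0.461 FPKM to 3.35 ± 0.652 FPKM (SD, n = 3 each), which is -0.57 on the log2 scale (SE 0.11, adjusted p = 0.017, limma, Benjamini-Hochberg). It rested on 197 to 241 fragments per DMSO library and 110 to 162 per DASA-58 library. The adjusted p was 0.061 without DMSO replicate 1, 0.053 without DMSO replicate 2, 0.12 without variance shrinkage and 0.082 with no filter on low values (limma, Benjamini-Hochberg).

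Chst3, which places sulfate at the same carbon, was at 0.125 FPKM in the DMSO group and 0.101 FPKM in the DASA-58 group, so that Chst7 held 97.8% and 96.9% of the summed FPKM of the pair. Among the 4 sulfotransferases of the members, Chst7 made up 10.1%, 11.1% and 9.92% of the summed FPKM with DMSO and 7.64%, 6.71% and 5.15% with DASA-58, without overlap. The sum of the 4, most of it from Chst12 and Chst14, was 52.2 ± 2.68 FPKM and 51.5 ± 0.768 FPKM (SD, n = 3 each), with overlapping groups.

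**Figure D2:**
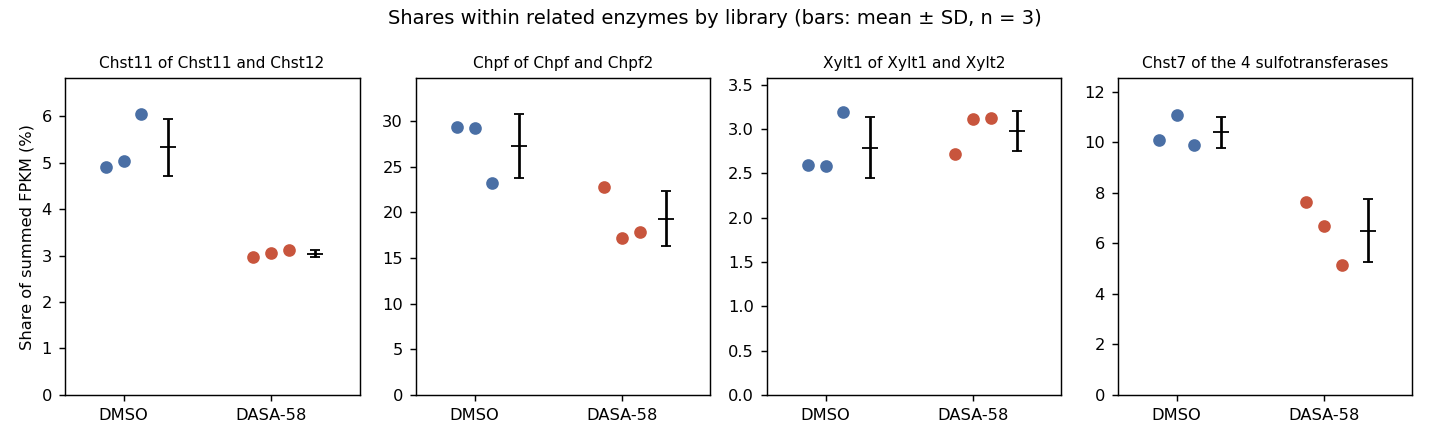
Share of one enzyme in the summed FPKM of related enzymes, in percent, for each library (blue DMSO, red DASA-58, black bar mean ± SD, n = 3). The plotted shares of Chst11 (of Chst11 and Chst12), Chpf (of Chpf and Chpf2) and Chst7 (of 4 sulfotransferases) were lower in every DASA-58 library, with means of 5.33% and 3.04%, 27.3% and 19.3%, and 10.4% and 6.50%, while that of Xylt1 overlapped, as did the share of Chpf when Chsy1 was added to its sum.

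For Chst11, Chst7 and Xylt2 the exact permutation test of the mean FPKM gave p = 0.10 (two-sided), the smallest that 3 against 3 allow, and for the other members p was between 0.20 and 0.80. Groups without overlap were common, since 21.6% of all genes tested had all DASA-58 libraries under, and 11.8% above, all DMSO libraries (33.4% in either direction). In order of log2 fold change, Chst7, Chpf and Chst11 lay at the percentiles 0.739, 1.25 and 1.99 of all genes tested and Xylt2 at 95.4, with the other 5 between 65.8 and 83.7. The order of these lower members depends on the pseudocount. By the log2 ratio of mean FPKM Chst11 was lowest (-0.75), before Chst7 (-0.69) and Chpf (-0.61).

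The other genes of the pathway were grouped into lists by role. The linkage and remaining chain enzymes showed no call as reported, and 1, Xylt1, was called higher with voom weights on fragments. Of 13 genes, 8 were tested and 0 were lower or higher at an adjusted p under 0.05 in limma, with 0 at an unadjusted p under 0.05 and a median log2 fold change of 0.01. Among all genes tested 11.5% were called in either direction, so that 0 of 8 genes is near that share. B4galt7, B3galt6 and B3gat3, which complete the linkage, had log2 fold changes of 0.08, -0.14 and 0.02, and Fam20b, the xylose kinase of the linkage, was at 5.69 FPKM in the DMSO group and 5.68 FPKM in the DASA-58 group. Dse, the epimerase that makes dermatan sulfate, was at 26.8 ± 0.110 FPKM and 26.3 ± 0.522 FPKM (SD, n = 3 each), and Ust, the uronyl 2-O-sulfotransferase, at 6.22 ± 0.521 FPKM and 6.77 ± 0.325 FPKM. Chst13, Chst15 and Chsy3 were under the filter, with means of 0.120, 0.330 and 0.0981 FPKM in the DMSO group and 0.0439, 0.315 and 0.0366 FPKM in the DASA-58 group.

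The supply of sugar nucleotides and of sulfate donor was covered by 20 genes, all of them tested. Of these, 0 were lower and 2 were higher, beside 7.28% and 4.24% of all genes tested. Ugp2, which makes UDP-glucose, rose from 29.6 ± 0.830 FPKM to 35.7 ± 0.808 FPKM (SD, n = 3 each), a log2 fold change of 0.26 (adjusted p = 0.0031, limma, Benjamini-Hochberg). Papss2, a synthase of the sulfate donor PAPS, rose from 5.15 ± 0.189 FPKM to 6.07 ± 0.196 FPKM (SD, n = 3 each), with a log2 fold change of 0.20 and an adjusted p of 0.032 (limma, Benjamini-Hochberg). Papss1, the other synthase, had a log2 fold change of -0.14 with an adjusted p of 0.057, and Ugdh, which makes UDP-glucuronic acid, one of 0.11 with an adjusted p of 0.067 (limma, Benjamini-Hochberg). The rise of Papss2 was weak, since its adjusted p lay between 0.052 and 0.10 when any 1 library was left out (limma, Benjamini-Hochberg).

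Proteins that carry chondroitin sulfate, always or in some cells, were represented by 22 genes of the table, of which 14 were tested, 4 were lower and 1 was higher, where 7.28% of all genes tested were lower and 4.24% higher. Versican, Vcan, fell from 4.37 ± 0.375 FPKM to 2.66 ± 0.0563 FPKM (SD, n = 3 each), a log2 fold change of -0.55 (adjusted p = 0.0018, limma, Benjamini-Hochberg). Syndecan-1, Sdc1, fell from 40.1 ± 1.39 FPKM to 23.9 ± 0.482 FPKM, a log2 fold change of -0.73 with an adjusted p of 4.3e-05 (limma, Benjamini-Hochberg). Vcan and Sdc1 are in the study's own network of downregulated genes as well. Their log2 ratios of mean FPKM here, -0.72 and -0.75, do not reach its stated cutoff either. Cd74, the invariant chain of MHC class II, and Sdc3, syndecan-3, fell less, with log2 fold changes of -0.29 and -0.13, and each lost its call when single libraries were left out, with an adjusted p of up to 0.083 for Cd74 and 0.090 for Sdc3 (limma, Benjamini-Hochberg). Nrp1, neuropilin-1, rose by 0.41 on the log2 scale (adjusted p = 0.0034, limma, Benjamini-Hochberg). Srgn, serglycin, was at 66.2 ± 1.02 FPKM in the DMSO group and 64.4 ± 1.30 FPKM in the DASA-58 group (SD, n = 3 each) and Cd44 at 62.2 and 59.3 FPKM, and neither passed the test. Cspg4 was under the filter, at 0.191 ± 0.0287 FPKM in the DMSO group and 0.114 ± 0.0126 FPKM in the DASA-58 group.

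Of 21 genes of the table for the breakdown of these chains 14 were tested, and 1 was lower, a share near the 7.28% of all genes tested, and 3 were higher, beside 4.24% of all genes. Arsb, the lysosomal sulfatase that removes sulfate from carbon 4, fell from 4.48 ± 0.0947 FPKM to 3.07 ± 0.180 FPKM (SD, n = 3 each), a log2 fold change of -0.43 (adjusted p = 0.0028, limma, Benjamini-Hochberg). It too is in the study's network of downregulated genes, though its log2 ratio of mean FPKM here, -0.55, does not reach the stated cutoff. Galns, the sulfatase for carbon 6, had a log2 fold change of 0.13 with an adjusted p of 0.10 (limma, Benjamini-Hochberg). Hexa, a subunit of the hexosaminidases, rose by 0.24 and Hgsnat by 0.27 on the log2 scale, with adjusted p-values of 0.0029 and 0.00063 (limma, Benjamini-Hochberg). Naglu rose by 0.13 on the log2 scale and lost the call whichever of the 6 libraries was left out, with adjusted p-values of 0.062 to 0.13 (limma, Benjamini-Hochberg). Hgsnat and Naglu are lysosomal enzymes of heparan sulfate breakdown rather than of chondroitin sulfate.

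**Figure D3:**
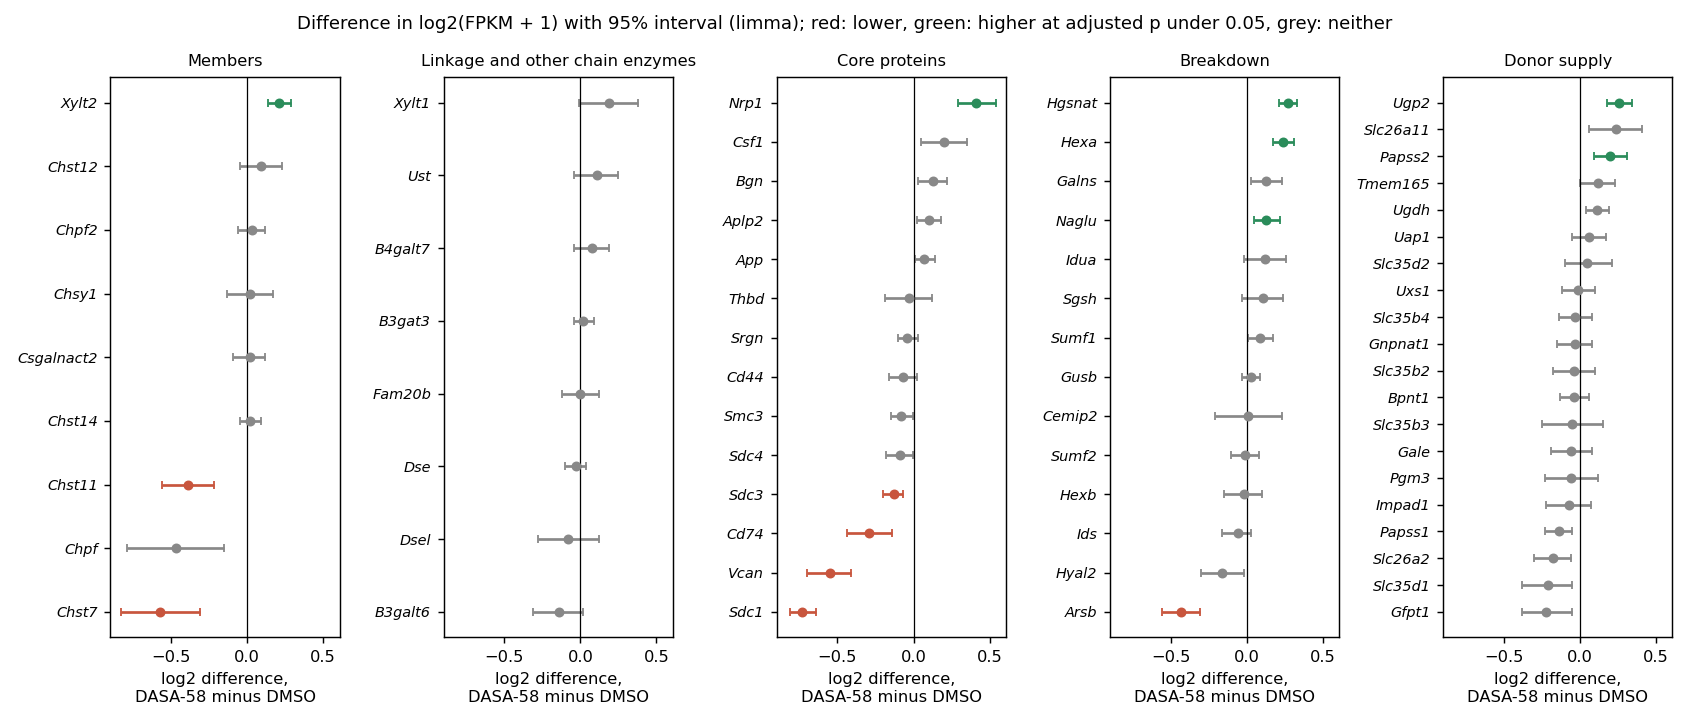
Difference in log2(FPKM + 1), DASA-58 minus DMSO, with its 95% interval from limma for the tested members and for the tested genes of the 4 pathway lists (red lower and green higher at an adjusted p under 0.05, grey neither). Chst7, Chst11, Vcan, Sdc1 and Arsb lay to the left and Xylt2, Ugp2, Nrp1, Hexa and Hgsnat to the right, while the intervals of all 8 linkage and other chain enzymes crossed 0.

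The enzymes of heparan sulfate, which shares its linkage with chondroitin sulfate, were set beside the members. The table lists 19 of these genes, and the 11 that were tested had a median of -0.08 on the log2 scale. Sulf2, an extracellular sulfatase, was lower with a log2 fold change of -0.31 (adjusted p = 0.034, limma, Benjamini-Hochberg), and Hpse, heparanase, rose by 0.35 on the log2 scale (adjusted p = 0.00063, limma, Benjamini-Hochberg). Sulf2 lost its call under 10 of 17 alternatives. The chain polymerases Ext1 and Ext2 both had log2 fold changes of -0.08 and did not pass the test. Of 9 other carbohydrate and tyrosine sulfotransferases of the table, 2 were tested, and 0 were called in limma, with 0 at an unadjusted p under 0.05. With 11.5% of all genes tested called in either direction, 0 of 2 genes is near that share.

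Some markers of other cell types were lower with DASA-58, as Chst11 and Chst7 were. Of 8 neutrophil markers 7 were tested, all 7 had negative log2 fold changes and 4 were lower. One of the 7, Mpo, passed the filter only through its DMSO level (1.27 FPKM, against 0.998 FPKM with DASA-58). Its sign is therefore no support for a difference, and it was not among the 4. Of all 10965 genes tested, 6555 had negative log2 fold changes and 7.28% were lower. The summed level of the neutrophil markers was 174.1 to 177.3 FPKM in the DMSO group and 136.5 to 142.6 FPKM in the DASA-58 group. Ly6g, with 0, 1 and 1 fragments in the DMSO libraries and 0 in each DASA-58 library, was under the floor of 3 fragments in both groups. The summed osteoclast markers were at 769.0 to 823.7 FPKM and 444.7 to 463.1 FPKM. Their part in the lower levels of Chst11 and Chst7 was not tested, and in libraries of whole cultures fewer cells of a type and less RNA per cell cannot be told apart. Stromal and cartilage markers, from cells that make much chondroitin sulfate, had overlapping sums, of 37.6 to 39.7 FPKM in the DMSO group and 38.5 to 39.3 FPKM in the DASA-58 group. Of single markers, Col3a1 and Dcn were lower and Prrx1 was higher in every DASA-58 library, Dcn on 2 to 6 fragments per library. Groups without overlap were found for 33.4% of all genes tested. Of the 4 stromal and cartilage markers tested, 0 passed the adjusted test in limma, with 1 at an unadjusted p under 0.05, beside 11.5% of all genes tested called in either direction. Acan and Lum were not found among the genes of the table, and Dcn was at 0.0494 and 0.0244 FPKM, whereas Col1a1 reached 22.3 and 23.0 FPKM. The sums of T and NK cell markers (5.76 to 6.62 and 5.61 to 6.43 FPKM), B cell markers (1.71 to 2.04 and 2.09 to 2.38 FPKM) and mast cell and basophil markers (0.276 to 0.432 and 0.221 to 0.622 FPKM) were low in both groups.

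**Figure D4:**
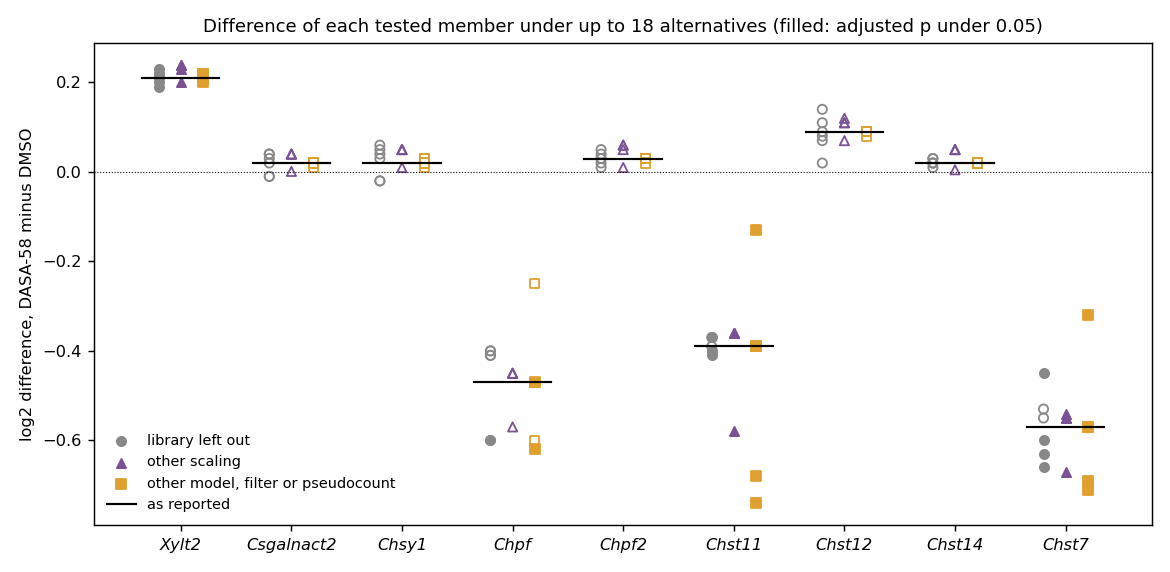
Log2 difference, DASA-58 minus DMSO, of the 9 tested members as reported (black line) and under up to 18 alternatives each (circles for a library left out, triangles for another scaling, squares for another model, filter or pseudocount, filled where the adjusted p was under 0.05). Xylt2 was filled throughout, Chst11, Chst7 and Chpf stayed below 0 with filled and open points, and Chsy1 and Csgalnact2 crossed 0.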

How the data were processed

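RNA of BMMs was measured in 6 libraries, 3 with DMSO and 3 with DASA-58, grouped by the treatment label. The authors deposited 1 table of FPKM values for 23504 genes by Ensembl identifier, with no scaling between libraries stated. The submitters' processing notes list HISAT2 2.1.0, HTSeq 0.6.0 and mm8, whereas exon lengths of GENCODE mouse release 21 (GRCm38) turned 21368 genes (90.9%), all 10 members among them, into whole fragments (tolerance 0.02). Coordinates and symbols are those of GENCODE, with 23455 identifiers matched. No column was left unmapped.

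log2(FPKM + 1) was compared with limma 3.58.1 (R 4.3.3), by lmFit and eBayes with a variance trend. Genes averaging under 1 FPKM were dropped, and p-values were adjusted by Benjamini-Hochberg across the 10965 left. Depth was 18191560 to 18968556 fragments. Single members had an exact permutation test (SciPy 1.17.1). In simulated data for this comparison, with 9570 genes fitted, 39 of 46 genes at a fold of 0.667 and 48 of 50 at 1.5 were called. In the same run 12 unchanged genes were called as well. The simulation gave every gene the same spread beyond counting, smaller than that of Chpf or of Chst7 with DASA-58. These rates therefore do not hold for members with such a spread. The 18 alternatives were pseudocounts of 0.1 and 5, no filter, a mean of at least 5 FPKM, 4 scalings, 2 variance models, the replicate number as a block, voom weights on fragments, and each library left out. All 10 members are named. From the other pathway lists, all genes past the test were named, up to 5 in each direction, with fixed genes of the linkage, sulfation and core proteins. Papss1, Ugdh, Galns, Srgn, Cd44, Ext1, Ext2, Col1a1, Lyz2, Adgre1, Cd68, Mertk, Cd14 and Mpo were named after their values were seen. Lists of cell type markers are given by ranges and counts, with a few genes named. The members and lists were chosen with earlier results of these data known. Protein sequences were not used here, and 1 gene of the breakdown list is not reported here and was left out of its counts.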

Additional observations from a re-analysis of the deposited data

How the results depend on the processing

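Xylt2 kept its direction and call under all 18 alternatives (log2 fold change 0.19 to 0.24). The count of 2 lower members fell to 1 with no filter and without variance shrinkage, where Chst7 was lost, and to 0 at a mean of at least 5 FPKM, where neither Chst11 nor Chst7 is tested. With single libraries left out it was 0 to 3, lowest without DMSO replicate 1 and highest without DMSO replicate 3. Chpf passed the test with the replicate block (adjusted p = 0.036) and with voom weights (adjusted p = 0.00079, limma). The log2 fold change of Chsy1 turned to -0.02 without DMSO replicate 2 or DASA-58 replicate 3 (range -0.02 to 0.06), and that of Csgalnact2 to -0.01 without DMSO replicate 2 or DASA-58 replicate 1 (range -0.01 to 0.04). The cause was not tested.

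Of all genes, 798 were lower and 465 higher as reported, and 372 and 257 with no filter, 314 and 227 without variance shrinkage. The lower genes numbered 515 with no trend, 504 with centring on the median and 523 with the trimmed mean. With 1 library left out they were 387 to 603 and the higher 272 to 375. Lower genes made up 63.2% of calls as reported, 45.8% with centring, 46.8% with the trimmed mean and 49.5% with quantile normalization, and the directions of Chst11, Chst7, Chpf and Xylt2 held under each scaling.

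Same-numbered libraries did not deviate together over all genes tested (correlations of -0.015, 0.016 and -0.016). Such a correlation cannot exclude that the libraries were paired, since it covers only deviations shared by many genes. With the replicate numbers as a block the SE was 0.069 instead of 0.11 for Chst7 and 0.093 instead of 0.14 for Chpf. For Chst11 it was larger, 0.083 instead of 0.075, with an adjusted p of 0.046 instead of 0.016 (limma, Benjamini-Hochberg). Under this block 579 genes were lower and 378 higher, and among the members 3 were lower and 1 higher. The linkage list had 0 lower and 0 to 1 higher genes, and the donor supply, core protein, breakdown and heparan sulfate lists had 0 to 4 calls in each direction under the alternatives. For Chst11 the counting error alone was 8.3% of the level with DMSO and 11% with DASA-58, which limits smaller changes.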
